A study of Mus musculus with 22 samples.

Results

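The 35 genes described here encode the Notch pathway of mouse muscle stem cells, from ligands and receptors through processing enzymes to target genes. They were taken by name, and all 35 were found among the 43430 genes measured. All 35 also passed the filter on low counts, which left 15084 genes for testing. By role they comprise 4 ligands, 2 Mindbomb ligases, 4 receptors, 4 enzymes that add sugars to receptors, 6 genes of receptor cleavage, 4 of the nuclear complex, 6 target or related HES and HEY genes, 2 Numb adaptors and 3 Deltex ligases.

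Cells came from hindlimb muscle of mice that all carried the Pax7-zsgreen genotype, in which cells with the stem cell factor Pax7 are green. All mice were perfused with mild fixative before cells were isolated. The 22 libraries are 6 from uninjured muscle (3 for ZT16, 3 for ZT4), 8 from day 1 and 8 from day 3 after cardiotoxin, a venom component that destroys muscle fibres (4 for ZT16 and 4 for ZT4 on each day). ZT, zeitgeber time, counts hours from lights on. The labels tie it to the injury, give no hour of collection, and are silent on how many mice the replicates come from, so p-values measure the spread between these libraries, which may be technical. RNA was read from bulk cells, so fewer cells of a type and less RNA per cell cannot be told apart.

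Notch is a receptor that is cut when a ligand on a neighbouring cell binds and pulls it. An ADAM protease makes the first cut and the gamma-secretase complex the next, and the freed intracellular domain joins the DNA-binding protein RBPJ and a Mastermind coactivator to switch on genes such as those of the HES and HEY repressors. In muscle, this pathway is known to hold stem cells in quiescence and to be turned down as their progeny differentiate.

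Library totals ranged from 5965957 to 9751536 estimated counts. Pax7 had a median of 324 CPM (read counts scaled to library size) in uninjured muscle, 56.8 at day 1 and 22.1 at day 3, while the myogenic factor Myod1 had 257, 1376 and 785 CPM in the same order of states. Both are in a list of 9 muscle stem cell markers, whose sum had medians of 7813, 4453 and 3247 CPM. Over uninjured muscle, 6 of the 9 were lower and 1 higher at day 1, and 6 lower and 2 higher at day 3. Among all genes tested, 40.6% were lower and 34.6% higher at day 1, and 39.1% and 37.9% at day 3. Itga7, for example, had medians of 696, 703 and 1227 CPM. A list of 12 macrophage markers summed to 17.7 to 95.4 CPM in uninjured libraries, 1361 to 4454 at day 1 and 271 to 977 at day 3. All 12 were higher at both days than in uninjured muscle, against 34.6% (day 1) and 37.9% (day 3) of all genes tested. The part of macrophages in the members' changes was not tested. Uninjured ZT16 replicates 1 and 3 stood apart, with 65650 and 55900 CPM summed over 10 immediate early genes such as Fos, against at most 3703 CPM in the other 4 uninjured libraries. Results that rest on these 2 libraries are given with and without them.

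Most of the pathway was lower after injury than before. At day 1, 24 members were lower and 7 higher than in uninjured muscle (adjusted p under 0.05, edgeR's quasi-likelihood test over all genes). Over all genes tested, 75.2% were called in that comparison, 40.6% lower and 34.6% higher. At day 3, 20 members were lower and 9 higher than in uninjured muscle, against 39.1% lower and 37.9% higher among all genes, 76.9% in all. Both comparisons share the uninjured libraries. The median log2 fold change of the members was −0.95 at day 1 and −0.76 at day 3, and that of all genes tested was −0.13 and −0.03. Between the injured states, 11 members were higher and 14 lower at day 3 than at day 1, where 55.4% of all genes were called, 26.7% higher and 28.7% lower. Since most of the genes tested were called after injury, the direction and size of each member's change are given by role.

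**Figure D1:**
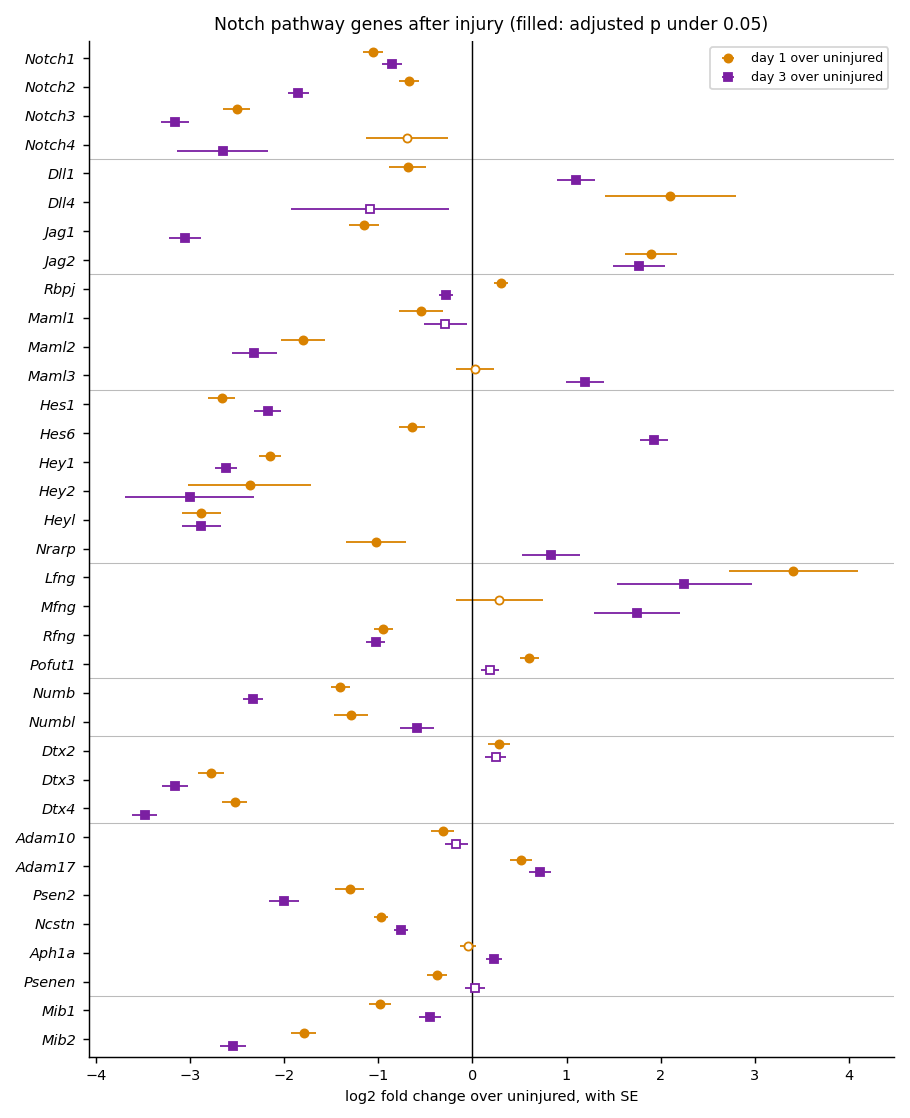
Log2 fold change (x axis) of each of the 35 genes (y axis, grouped by role) at day 1 (circles) and day 3 (squares) over uninjured muscle. Bars are SE and filled symbols passed an adjusted p of 0.05. Notch3, Hes1, Hey1, Hey2, Heyl, Dtx3 and Dtx4 lie below −2 at both days, and Jag2 and Lfng lie above 1 at both.

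Of the ligands, Dll1 and Jag1 moved apart. Dll1, which encodes a Delta ligand known to act on muscle progenitors, lies on chromosome 17 (15367354 to 15376872, GRCm38). It ranged from 23.7 to 72.0 CPM in uninjured libraries (median 52.1, n = 6), from 23.4 to 37.1 at day 1 (median 31.6, n = 8) and from 99.3 to 119 at day 3 (median 101, n = 8). Every day 3 library was above every other library, while day 1 and uninjured overlapped. The log2 fold change of Dll1 was 1.10 ± 0.20 (SE) at day 3 over uninjured and 1.79 ± 0.19 at day 3 over day 1. At day 1 over uninjured it was −0.69 ± 0.20, a call that was lost without uninjured ZT4 replicate 1 (−0.42, edgeR adjusted p = 0.0639) and without uninjured ZT16 replicates 1 and 3 (−0.12, edgeR adjusted p = 0.634).

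Jag1, a Jagged ligand (chromosome 2, 137081456 to 137116644), had a median of 83.2 CPM in uninjured libraries (54.6 to 84.1), 36.0 at day 1 (24.8 to 44.0) and 10.6 at day 3 (4.37 to 12.7). The 3 states did not overlap. Its log2 fold change over uninjured was −1.15 ± 0.16 at day 1 and −3.05 ± 0.17 at day 3. Jag2, its relative, was low in every library but went the other way. It had a median of 1.97 CPM in uninjured libraries (0.99 to 4.74), 9.83 at day 1 (5.13 to 12.6) and 8.55 at day 3 (7.09 to 10.6), with log2 fold changes over uninjured of 1.90 ± 0.28 at day 1 and 1.77 ± 0.28 at day 3.

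Dll4, the Delta ligand known best from blood vessels, had at most 5.26 CPM in any library. It rose at day 1 over uninjured (2.10 ± 0.69) and was lower at day 3 than at day 1 (−3.19 ± 0.66), where the ranges were 0.00 to 1.26 CPM at day 3 and 1.52 to 5.26 CPM at day 1. In TPM, which is scaled for transcript length and so compares genes, Dll1 made up 52.6% ± 9.4 of the 4 ligands' sum in uninjured muscle (SD, n = 6), 50.1% ± 7.6 at day 1 (n = 8) and 89.8% ± 1.6 at day 3 (n = 8). Jag1 made up 44.6% ± 9.9, 32.7% ± 7.6 and 4.5% ± 1.6 in the same states. The ligands' summed TPM had a median of 50.5 in uninjured libraries, 25.2 at day 1 and 52.4 at day 3, so the sum at day 3 came near that of uninjured muscle with a different make-up.

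The Mindbomb ligases tag ligands with ubiquitin so that the sending cell can take them up, a step that ligand activity needs. Mib2 (chromosome 4, 155654677 to 155669198) fell furthest, with a median of 64.8 CPM in uninjured libraries (46.2 to 115), 18.9 at day 1 (14.5 to 23.2) and 11.4 at day 3 (7.53 to 17.4). No injured library reached the lowest uninjured one, and the log2 fold changes over uninjured were −1.79 ± 0.13 at day 1 and −2.54 ± 0.14 at day 3. Mib1 had medians of 55.6 CPM in uninjured libraries, 28.5 at day 1 and 43.2 at day 3, with log2 fold changes over uninjured of −0.98 ± 0.12 and −0.45 ± 0.12. At day 3 over day 1, Mib1 was higher (0.53 ± 0.11) and Mib2 lower (−0.75 ± 0.13).

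**Figure D2:**
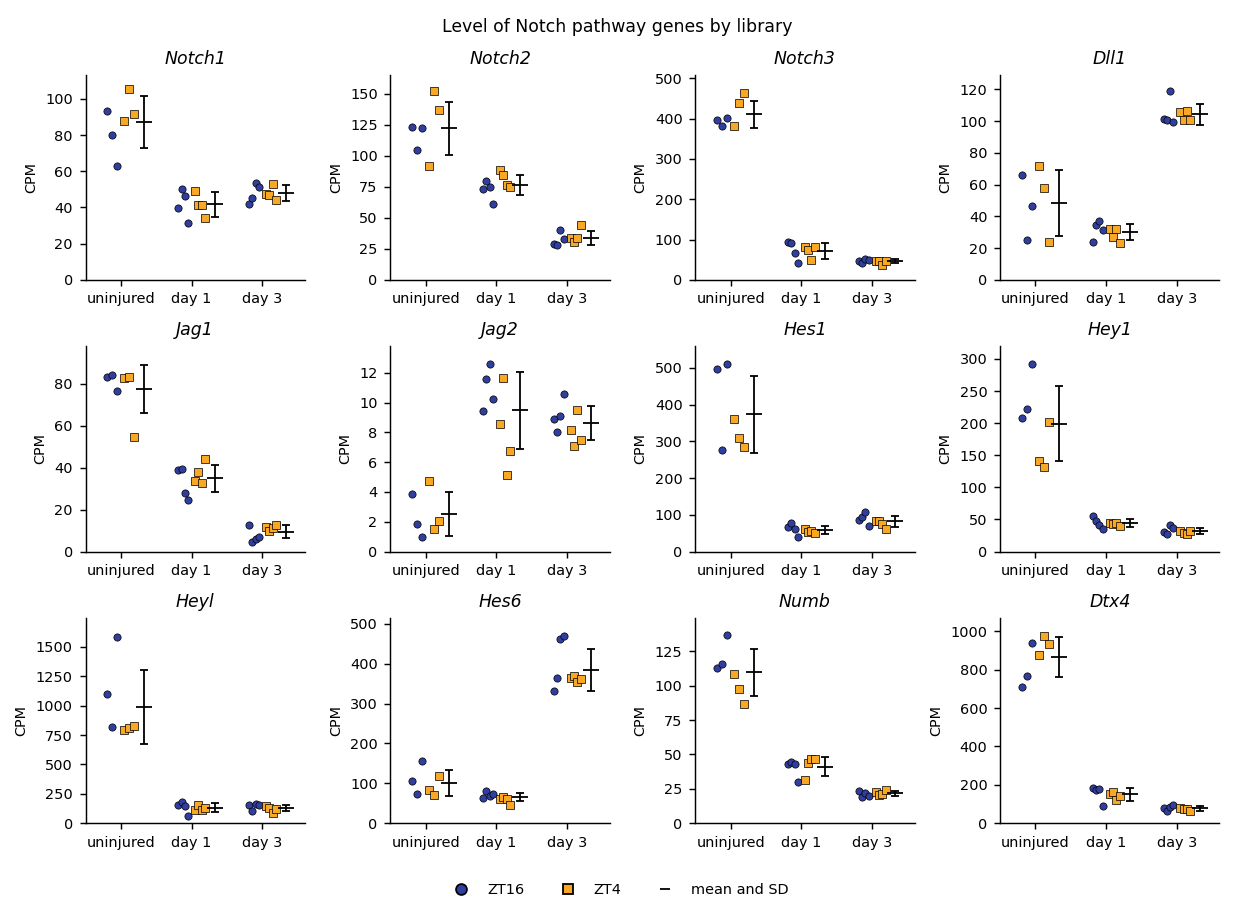
Level in CPM (y axis, linear) of 12 members in every library, by state (x axis), with ZT16 libraries as circles, ZT4 libraries as squares, and mean and SD beside them. Uninjured libraries lie above all injured ones for Notch1, Notch2, Notch3, Jag1, Hes1, Hey1, Heyl, Numb and Dtx4, and below all of them for Jag2, while day 3 libraries lie highest for Dll1 and Hes6.

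All 4 receptors were lower at day 3 than in uninjured muscle, and 3 of 4 at day 1, where Notch4 passed in some alternative analyses. Notch3, the receptor with the highest TPM before injury (chromosome 17, 32120820 to 32166852), fell most among the 3 that were well expressed. It had a median of 399 CPM in uninjured libraries (382 to 465), 77.6 at day 1 (41.1 to 93.0) and 46.7 at day 3 (37.6 to 52.8). The lowest uninjured library was far above the highest injured one, with log2 fold changes over uninjured of −2.50 ± 0.14 at day 1 and −3.16 ± 0.15 at day 3. Notch3 is also known from smooth muscle and pericytes. Of 9 mural markers, 7 were lower at day 1 and 7 lower and 1 higher at day 3 than in uninjured muscle. Among all genes tested, 40.6% were lower at day 1, and 39.1% were lower and 37.9% higher at day 3. The markers' summed level was 345 to 401 CPM at day 1 and 253.5 to 444 at day 3, against 442.5 to 1243 in uninjured libraries. Acta2 was the largest part of it, with medians of 276 CPM at day 1 and 308 at day 3, against 486 in uninjured libraries. The pericyte gene Rgs5, also in the list, had a median of 8.65 CPM at day 1 and 6.38 at day 3, against 28.4 in uninjured libraries. Other mural markers went the other way at day 3. Pdgfrb had medians of 7.23 CPM at day 1 and 13.4 at day 3, against 8.46, and Cspg4 7.05 and 11.4, against 8.36. At day 3, 2 of the 9 log2 fold changes over uninjured were positive and 7 negative. The part of these cells in the Notch3 result was not tested.

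Notch1 and Notch2 followed different courses. Notch1 (chromosome 2, 26457903 to 26516663) had a median of 89.8 CPM in uninjured libraries (63.0 to 106), 41.4 at day 1 (31.2 to 49.9) and 47.1 at day 3 (41.9 to 53.7), and its levels at day 3 and day 1 did not differ beyond their spread (0.20 ± 0.10, edgeR adjusted p = 0.104). Notch2 (chromosome 3, 98013527 to 98150361) had 123 CPM in uninjured libraries (92.0 to 153), 75.7 at day 1 (60.9 to 88.2) and 33 at day 3 (28.4 to 44.0), with no overlap between the states. The log2 fold changes over uninjured were −1.05 ± 0.11 and −0.85 ± 0.11 for Notch1, and −0.67 ± 0.11 and −1.85 ± 0.11 for Notch2, at day 1 and day 3.

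Notch4, known as a receptor of endothelial cells, was low throughout (0.31 to 7.59 CPM) and was lower at day 3 than in uninjured muscle (−2.65 ± 0.48). Its change at day 1 over uninjured, −0.69 ± 0.43, did not pass. It did pass without day 1 ZT16 replicate 4 (−1.05, edgeR adjusted p = 0.0291) and by limma (−1.14, adjusted p = 0.0266). Of 12 endothelial markers, 8 were lower at day 3 than in uninjured muscle, where 39.1% of all genes tested were lower. At day 1, 2 of the markers passed, 1 in each direction, where 75.2% of all genes were called. The markers' summed level was 64.5 to 160 CPM at day 1 and 25.0 to 46.3 at day 3, against 135 to 251 in uninjured libraries. Tek, with a median of 98.2 CPM, held most of the uninjured sum, and its medians were 14.0 CPM at day 1 and 4.13 at day 3. At day 1 over uninjured, 8 of the 12 markers had positive log2 fold changes and 4 negative ones (median 0.37). Pecam1, for example, had medians of 12.1 CPM at day 1 and 4.83 at day 3, against 9.71 in uninjured libraries, and Cdh5 had 0.95 and 0.73 CPM, against 1.80. At day 3 all 12 log2 fold changes were negative (median −1.17). The part of endothelial cells in the results for Notch4 and Dll4 was not tested.

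The receptors' summed TPM had a median of 105 in uninjured muscle, 31.2 at day 1 and 20.7 at day 3. Notch3 made up 67.5% ± 3.0 of it in uninjured libraries (SD, n = 6), 37.9% ± 5.1 at day 1 (n = 8) and 36.0% ± 3.6 at day 3 (n = 8). Notch1 made up 15.5% ± 2.7, 25.2% ± 5.2 and 41.0% ± 4.9 in the same states. In uninjured muscle Notch3 averaged 71.1 ± 2.0 TPM, ahead of Notch1 (16.4 ± 3.3) and Notch2 (16 ± 2.2), which did not differ beyond their spread, and Notch4 (1.94 ± 1.68). At day 3 Notch1 averaged 8.55 ± 1.77 TPM and Notch3 7.44 ± 0.85, within their spread, ahead of Notch2 (4.19 ± 0.73) and Notch4 (0.56 ± 0.83).

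**Figure D3:**
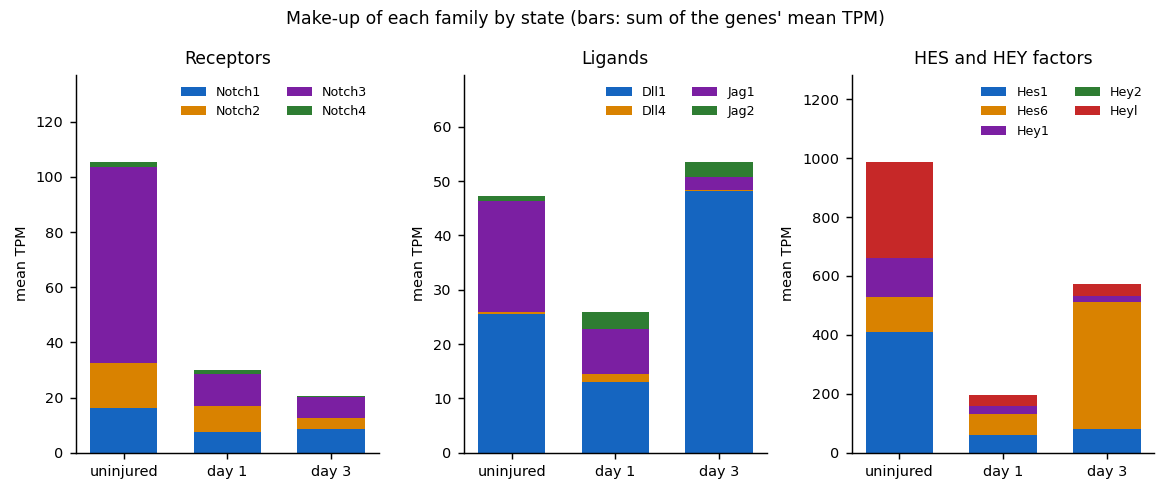
Stacked bars of mean TPM (y axis, linear from 0) of the receptors, the ligands and the HES and HEY factors in each state (x axis), each colour a gene. The Notch3 segment is the largest receptor segment in uninjured muscle and shrinks most, the ligand bar at day 3 is nearly all Dll1, and the HES and HEY bar at day 3 is mostly Hes6.

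Receptors carry O-fucose, added by POFUT1, which the 3 Fringe enzymes can extend to change which ligands the receptor favours. Pofut1 rose at day 1 over uninjured (0.60 ± 0.10), with 39.5 to 47.7 CPM at day 1 and 19.7 to 42.6 in uninjured libraries, and did not pass at day 3 (0.19 ± 0.10). At day 3 it did pass in 8 alternative analyses, with the largest value, 0.40 (edgeR adjusted p = 0.000736), without uninjured ZT4 replicate 1. The Fringe genes did not move together. Rfng, which made up 97.2% ± 2.0 of Fringe TPM in uninjured muscle, was lower at both days (−0.95 ± 0.10 and −1.03 ± 0.10), with medians of 42.7 CPM at day 1, 41.0 at day 3 and 90.2 in uninjured libraries. Mfng was higher at day 3 (1.75 ± 0.45), at 4.16 to 8.75 CPM, against 0.00 to 3.41 CPM in uninjured libraries. Lfng, the Fringe known from segmentation, was at most 2.70 CPM at day 1 and at most 0.57 CPM in uninjured libraries, so its log2 fold changes over uninjured of 3.41 ± 0.69 at day 1 and 2.25 ± 0.72 at day 3 rest on few reads.

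The cleavage genes differed in direction. Adam17 rose over uninjured at both days (0.52 ± 0.12 and 0.72 ± 0.12), with 85.2 to 107 CPM at day 3, above every uninjured library (32.5 to 71.6). Adam10, the protease that makes the first cut after ligand binding, passed only at day 1 (−0.32 ± 0.12) and overlapped between all states. That call was lost in 12 alternative analyses, at −0.15 to −0.27 without any 1 of uninjured ZT16 replicates 1 and 2, uninjured ZT4 replicates 1 and 2, day 1 ZT16 replicate 4 and day 1 ZT4 replicate 2. Among the gamma-secretase genes, the catalytic subunit gene Psen2 (chromosome 1, 180227004 to 180263438) fell most, with a median of 29.7 CPM in uninjured libraries (27.1 to 37.8), 12.9 at day 1 (8.0 to 17.9) and 7.57 at day 3 (5.02 to 9.65). Its log2 fold changes over uninjured were −1.30 ± 0.16 and −2.0 ± 0.16.

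Ncstn, which encodes the substrate-binding subunit nicastrin, was lower at both days, with medians of 150 CPM at day 1 and 178 at day 3, against 308 in uninjured libraries (−0.97 ± 0.07 and −0.76 ± 0.07). Aph1a did not pass at day 1 (−0.05 ± 0.09) and was slightly higher at day 3 (0.23 ± 0.09), with overlapping ranges. Psenen, a further subunit gene, passed at day 1 (−0.38 ± 0.11) and not at day 3 (0.03 ± 0.11). The day 1 call of Psenen was lost with the effective length offset (−0.21, edgeR adjusted p = 0.0985), without a filter on low counts (−0.26, edgeR adjusted p = 0.0601), without uninjured ZT4 replicate 1 (−0.26, edgeR adjusted p = 0.0516) and without uninjured ZT16 replicate 2 (−0.17, edgeR adjusted p = 0.153). Without that replicate 2, Psenen passed at day 3 (0.25, edgeR adjusted p = 0.0324).

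In the nuclear complex, Rbpj changed little. It had a median of 107 CPM in uninjured libraries (84.6 to 131), 133 at day 1 (119 to 146) and 90.3 at day 3 (80.0 to 95.6). The injured days did not overlap each other and both overlapped uninjured, with log2 fold changes over uninjured of 0.30 ± 0.08 at day 1 and −0.28 ± 0.07 at day 3. The day 3 call was lost without uninjured ZT4 replicate 1 (−0.10, edgeR adjusted p = 0.234) and without uninjured ZT16 replicates 1 and 3 (−0.15, edgeR adjusted p = 0.14). The Mastermind coactivators differed in direction. Maml2 fell at both days (−1.80 ± 0.23 and −2.32 ± 0.24), with medians of 6.01 CPM at day 1 and 3.85 at day 3, against 21.8 in uninjured libraries. Maml3 rose at day 3 (1.20 ± 0.20), with 11.5 to 19.0 CPM at day 3, against 4.12 to 12.6 in uninjured libraries. Maml1 passed at day 1 alone (−0.55 ± 0.23), a call that was lost in 12 alternative analyses, at −0.35 to −0.54 without any 1 of day 1 ZT16 replicates 1, 2 and 3, day 1 ZT4 replicates 1 and 2, uninjured ZT16 replicates 1 and 2 and uninjured ZT4 replicate 1.

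Among the target and related genes, the HEY genes and Hes1 fell after injury while the related gene Hes6 rose by day 3. Heyl, the HEY gene with the highest level here (chromosome 4, 123233556 to 123249875), had a median of 822 CPM in uninjured libraries (797 to 1586), 138 at day 1 (59.3 to 179) and 139 at day 3 (87.5 to 160). Its log2 fold changes over uninjured were −2.88 ± 0.21 at both days, and day 3 over day 1 was 0.00 ± 0.19. Hes1 (chromosome 16, 30064384 to 30067796) had 336 CPM in uninjured libraries (276 to 509), 58.4 at day 1 (39.3 to 77.0) and 83.1 at day 3 (60.7 to 108), and was higher at day 3 than at day 1 (0.49 ± 0.14). Hey1 (chromosome 3, 8663359 to 8667256) had 205 CPM in uninjured libraries (131 to 292), 43.7 at day 1 (35.2 to 56.0) and 31.1 at day 3 (26.6 to 41.4), and was lower at day 3 than at day 1 (−0.47 ± 0.11). For these 3 genes every injured library was below every uninjured one. The other HEY gene, Hey2, was low, at no more than 0.94 CPM in injured libraries, against 0.16 to 5.45 CPM in uninjured ones, with log2 fold changes over uninjured of −2.36 ± 0.65 at day 1 and −3.0 ± 0.68 at day 3.

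Hes6 is a HES-family gene whose product is known to oppose HES1 and to favour differentiation of mouse myoblasts (chromosome 1, 91411483 to 91414038). It had a median of 94.8 CPM in uninjured libraries (71.8 to 156), 64.5 at day 1 (46.9 to 79.9) and 364 at day 3 (330 to 470). All 8 day 3 libraries were at least 330 CPM and all 14 others at most 156. The log2 fold change was 1.93 ± 0.15 at day 3 over uninjured and 2.57 ± 0.14 at day 3 over day 1. At day 1 over uninjured it was −0.64 ± 0.14, which did not pass without uninjured ZT16 replicates 1 and 3 (−0.21, edgeR adjusted p = 0.177). Hes6 made up 12.2% ± 2.4 of HES and HEY TPM in uninjured muscle (SD, n = 6), 36.3% ± 5.8 at day 1 (n = 8) and 75.0% ± 2.6 at day 3 (n = 8). Hes1 made up 41.4% ± 4.4, 30.0% ± 2.1 and 14.5% ± 2.2 in the same states.

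Nrarp, a Notch target whose product restrains Notch signalling (chromosome 2, 25180758 to 25183339), had 1.76 to 18.1 CPM in uninjured libraries (median 3.69), 1.40 to 4.43 at day 1 (median 2.59) and 5.49 to 15.7 at day 3 (median 8.67). Day 3 and day 1 did not overlap (1.86 ± 0.30), and both overlapped uninjured. Over uninjured the log2 fold change was −1.02 ± 0.32 at day 1 and 0.84 ± 0.31 at day 3. Without uninjured ZT16 replicates 1 and 3, which held the highest uninjured levels, the day 1 value was −0.17 (edgeR adjusted p = 0.70).

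Promoter windows are shown for the target and related genes that had one in the promoter set used, Hes6, Hey2 and Nrarp. Hes1, Hey1 and Heyl had no window in that set. The genes shown were not chosen by their course, and motifs were not compared with courses. RefSeq windows on GRCm38.p6, from 250 bases before to 50 after the annotated start, were read for Hes6, Hey2 and Nrarp. They are shown 5′ to 3′ on the gene's strand, with capitals for the RBPJ-type letters GTGGGAA or their reverse complement TTCCCAC. The windows are chr1:91413173-91413472 (minus strand) for Hes6, chr10:30842734-30843033 (minus strand) for Hey2 and chr2:25180508-25180807 (plus strand) for Nrarp.
Hes6: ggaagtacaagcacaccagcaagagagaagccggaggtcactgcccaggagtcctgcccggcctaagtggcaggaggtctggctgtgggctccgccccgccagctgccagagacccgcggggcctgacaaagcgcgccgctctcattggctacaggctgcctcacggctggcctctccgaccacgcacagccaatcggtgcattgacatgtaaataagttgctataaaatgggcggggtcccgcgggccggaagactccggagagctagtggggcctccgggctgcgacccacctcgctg
Hey2: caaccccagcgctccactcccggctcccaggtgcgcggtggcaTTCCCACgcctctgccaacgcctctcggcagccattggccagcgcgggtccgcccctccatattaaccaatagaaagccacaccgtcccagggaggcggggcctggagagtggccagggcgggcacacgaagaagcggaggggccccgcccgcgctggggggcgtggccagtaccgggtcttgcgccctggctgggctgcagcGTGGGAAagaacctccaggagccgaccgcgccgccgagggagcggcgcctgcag
Nrarp: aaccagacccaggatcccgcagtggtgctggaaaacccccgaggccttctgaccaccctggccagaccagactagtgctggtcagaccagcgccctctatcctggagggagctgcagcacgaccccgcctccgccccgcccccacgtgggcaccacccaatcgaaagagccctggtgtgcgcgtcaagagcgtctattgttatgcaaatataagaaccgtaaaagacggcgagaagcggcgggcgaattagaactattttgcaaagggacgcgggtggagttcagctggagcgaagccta
The shorter core TGGGAA, which lies within GTGGGAA, was searched on both strands as well. The Hey2 window held GTGGGAA at 2 places, in reverse from −207 and forward from −4 relative to the start. The Hes6 and Nrarp windows held neither form. Of 32851 RefSeq windows, 25.6% held TGGGAA and 6.38% held GTGGGAA on either strand. Of the 37 windows of 28 members, 10 held TGGGAA, in 9 members, and 4 held GTGGGAA, in Psen2, Aph1a, Lfng and Hey2.

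Genes outside the 35 that are known from work on RBPJ in mouse muscle stem cells were also read, while RBPJ activity itself was not measured. All 6 were lower than in uninjured muscle at both days, where 40.6% (day 1) and 39.1% (day 3) of all genes were lower. Calcr, the calcitonin receptor gene, had log2 fold changes of −3.25 ± 0.22 at day 1 and −6.20 ± 0.26 at day 3. Among the collagen genes, Col6a1 had −3.08 ± 0.17 and −2.01 ± 0.17, Col5a3 −2.22 ± 0.16 and −1.71 ± 0.15, and Col5a1 −2.45 ± 0.18 and −1.70 ± 0.17. Between the injured days, 4 of these genes were higher at day 3 than at day 1 and Calcr was lower (−2.95 ± 0.26). Of all genes tested, 26.7% were higher and 28.7% lower in that comparison. Some of these collagens are also made by fibroblasts, and 10 fibro-adipogenic markers summed to 1002 to 1322 CPM at day 1 and 2074 to 4384 at day 3, against 3508 to 4503 in uninjured libraries. Single markers did not follow the sum, since 2 were higher and 6 lower at day 1, and 6 higher and 3 lower at day 3, than in uninjured muscle. Among all genes tested, 34.6% were higher and 40.6% lower at day 1, and 37.9% and 39.1% at day 3. The part of fibroblasts in the collagen values was not tested.

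Numb and Numbl encode adaptors that bring Notch into the cell and are known to inhibit it. Numb (chromosome 12, 83794034 to 83921934) had a median of 111 CPM in uninjured libraries (86.4 to 137), 43.6 at day 1 (29.6 to 47.0) and 21.8 at day 3 (18.8 to 24.1), without overlap between states. Its log2 fold changes over uninjured were −1.40 ± 0.10 and −2.33 ± 0.11. Numbl was also lower at day 1 (−1.29 ± 0.18) but higher at day 3 than at day 1 (0.70 ± 0.17), with medians of 24.9 CPM in uninjured libraries, 9.58 at day 1 and 16.4 at day 3. Its change at day 3 over uninjured, −0.59 ± 0.18, did not pass without uninjured ZT16 replicates 1 and 3 (−0.37, edgeR adjusted p = 0.139).

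The Deltex genes encode ubiquitin ligases, of which some bind the intracellular domain of Notch. Dtx4 (chromosome 19, 12466338 to 12501454) fell most of all 35 genes at day 3. It had a median of 904 CPM in uninjured libraries (707 to 974), 159 at day 1 (90.0 to 184) and 78.2 at day 3 (62.7 to 96.3), with log2 fold changes over uninjured of −2.52 ± 0.13 and −3.48 ± 0.14. Dtx3 had medians of 134, 19.6 and 15.2 CPM in the same states (−2.78 ± 0.14 and −3.16 ± 0.14). In both genes every injured library was below every uninjured one. Dtx2 differed from them. It was higher at day 1 over uninjured (0.28 ± 0.11), did not pass at day 3 (0.25 ± 0.11), and its ranges overlapped between all states. The day 1 call was lost in 7 alternative analyses, at 0.26 to 0.28 without any 1 of day 1 ZT16 replicate 3, day 1 ZT4 replicates 2 and 4, uninjured ZT16 replicate 3 and uninjured ZT4 replicate 2. The day 3 value passed in 10 alternative analyses, at up to 0.39.

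Of 41 other genes of the pathway and its corepressors, 38 were tested. At day 1, 20 were lower and 8 higher than in uninjured muscle, and at day 3, 25 were lower and 8 higher. In all, 28 of the 38 were called at day 1 and 33 at day 3, against 75.2% and 76.9% of all genes tested. Of all genes, 40.6% were lower and 34.6% higher at day 1, and 39.1% lower and 37.9% higher at day 3. The smallest p-values at day 1 belonged to the coactivator gene Crebbp (−1.34 ± 0.08), the corepressor genes Cir1 (−2.16 ± 0.14) and Tle2 (−2.50 ± 0.18), and the deacetylase gene Hdac2 (0.94 ± 0.06). At day 3 they belonged to Tle2 (−3.05 ± 0.18), Cir1 (−1.91 ± 0.14), the corepressor gene Tle3 (−1.62 ± 0.12) and the deacetylase gene Hdac1 (0.86 ± 0.07). These proteins also serve many factors other than RBPJ. Between the injured days, 11 were higher and 13 lower at day 3 than at day 1, where 26.7% of all genes were higher and 28.7% lower.

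The make-up of transcripts within a gene could be tested for 21 members of 7608 genes. For day 1 over uninjured it differed in 2 members, Psen2 and Pofut1, where 15.4% of genes were called. For day 3 over uninjured it differed in 3, those genes and Numb, where 15.7% were called. For day 3 over day 1 it differed in no member (5.35% of genes called, edgeR diffSpliceDGE). A separate variance for each transcript called 1 member there (416 of 7608 genes), and limma 3 (971 genes). Psen2, Pofut1 and Numb also passed the test with a separate variance, which called 6 members at day 1 and 9 at day 3. That test called 2632 and 2637 of all 7608 genes. By limma 8 and 9 members were called, where 2917 and 2897 of all genes were called. Among transcripts of at least 10% of their gene, 15 members were tested. Those called were Pofut1 and Rbpj at day 1 and none at day 3, where 596 and 573 of 5780 genes were called. Simulated counts gave more calls of unchanged genes than the threshold allows under the first test.

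The largest coding transcript of Psen2, Psen2-205, made up 48.7% ± 12.2 of the gene at day 1 and 45.3% ± 17.8 at day 3, against 67.4% ± 12.2 in uninjured libraries, by the authors' deposited percentages. For Pofut1, Pofut1-201 made up 63.0% ± 9.6 at day 1 and 79.9% ± 14.0 at day 3, against 68.7% ± 13.3 in uninjured libraries. Pofut1-208, annotated as subject to nonsense-mediated decay, made up 21.6% ± 12.1 at day 1 and 6.6% ± 10.6 at day 3, against 0.75% ± 1.27. For Numb, Numb-204 made up 57.5% ± 12.3 at day 1 and 56.1% ± 8.7 at day 3, against 67.4% ± 6.9. Transcripts that passed on their own were named after their values were seen. They were a further coding transcript of Psen2 at both days (21.9% ± 20.0 and 11.7% ± 12.7, against 0.24% ± 0.58), Pofut1-208 at day 1, Pofut1-205, which retains an intron, at day 3 (1.7% ± 1.9 against 19.0% ± 8.1), and Numb-202 at day 3 (6.6% ± 9.8, against 0 in every uninjured library). All of these shares varied widely between libraries of a state.

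ZT16 was compared with ZT4 within each state. By the labels ZT is tied to the injury, which uninjured muscle did not have, so its meaning may differ between uninjured and injured states. With no hour of collection given, these contrasts cannot be read as time of day at sampling. In uninjured muscle, 5 members were higher and 2 lower at ZT16 than at ZT4, where 17.7% of all genes were called (8.53% higher and 9.12% lower). Within these 7, Mib2 had the smallest adjusted p (edgeR, 0.00107). It had 79.5, 90.4 and 115 CPM at ZT16 (replicates 1 to 3), against 50.1, 47.4 and 46.2 CPM at ZT4, with no overlap (0.99 ± 0.20). Dtx2 likewise did not overlap, with 22.1, 24.1 and 22.4 CPM at ZT16 and 15.1, 14.2 and 15.7 CPM at ZT4 (0.61 ± 0.17). Hey1 had 208, 222 and 292 CPM at ZT16 and 141, 131 and 202 CPM at ZT4 (0.61 ± 0.17), so its lowest ZT16 library was just above its highest ZT4 library.

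Pofut1 and Psenen were the members that were lower at ZT16. Pofut1 had 24.9, 19.7 and 26.8 CPM at ZT16, against 42.6, 31.9 and 28.5 CPM at ZT4 (−0.53 ± 0.15). Psenen had 39.4, 62.8 and 47.0 CPM at ZT16, against 71.7, 68.4 and 66.7 CPM at ZT4 (−0.47 ± 0.16). In both genes every ZT16 library was below every ZT4 library.

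The target Nrarp and the ligand Dll4 had the largest fold changes between the times among the 7 members called, and both were highest in the uninjured libraries with high immediate early genes. Nrarp had 18.1, 4.00 and 10.8 CPM at ZT16 (replicates 1 to 3), against 3.39, 2.97 and 1.76 CPM at ZT4 (1.99 ± 0.48). Dll4 had 4.87, 0.14 and 1.56 CPM at ZT16, against 0.23, 0.37 and 0.00 CPM at ZT4 (3.28 ± 1.13). The ZT16 library with ordinary immediate early levels, replicate 2, was within the ZT4 range for Dll4 and just above it for Nrarp. Hes1 and Heyl were highest in the same 2 libraries. Hes1 had 496, 276 and 509 CPM at ZT16, against 362, 310 and 286 CPM at ZT4. Heyl had 1103, 819 and 1586 CPM at ZT16, against 797, 806 and 824.9 CPM at ZT4. Neither gene passed in the fit of all libraries with the filter on low counts. Heyl did pass without that filter (0.51, edgeR adjusted p = 0.00459). Hes1 did pass without ZT16 replicate 2 (0.63, edgeR adjusted p = 0.0267), which leaves at ZT16 the 2 libraries with high immediate early genes.

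Without uninjured ZT16 replicates 1 and 3, which leaves 1 library at ZT16 that is assumed to vary like the other groups, 1 of the 7 members stayed past the threshold, Pofut1 (−0.82, edgeR adjusted p = 0.0375). Mib2 kept a log2 fold change of 0.90 (edgeR adjusted p = 0.0749) and Dtx2 of 0.66 (edgeR adjusted p = 0.159). Hey1 had 0.47 (edgeR adjusted p = 0.318), Psenen −0.15 (edgeR adjusted p = 0.802) and Nrarp 0.53 (edgeR adjusted p = 0.752). Dll4 turned to −0.52 (edgeR adjusted p = 0.96). In the fit of all libraries, of 12 endothelial markers 1 was higher, and of 9 mural markers 2 were lower, at ZT16 than at ZT4. There, 8.53% of all genes were higher and 9.12% lower. The part of the immediate early libraries or of these cells in the time results was not tested further.

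By limma, 2 of the 7 members passed, Mib2 and Hey1. With the uninjured libraries fitted alone, 1 passed, Mib2, and Dll4 was not among the genes tested. With 1 uninjured library left out at a time, 3 to 6 members were called, and Mib2 passed each time. Nrarp did not pass without ZT16 replicate 1 (1.42, edgeR adjusted p = 0.062). Hey1 did not pass without ZT16 replicate 3 (0.45, edgeR adjusted p = 0.107), ZT4 replicate 1 (0.50, edgeR adjusted p = 0.0754) or ZT4 replicate 2 (0.48, edgeR adjusted p = 0.0913). Dtx2 did not pass without ZT16 replicate 2 (0.54, edgeR adjusted p = 0.056) or ZT4 replicate 2 (0.56, edgeR adjusted p = 0.0612). Pofut1 did not pass without ZT16 replicate 2 (−0.44, edgeR adjusted p = 0.0608) or ZT4 replicate 1 (−0.37, edgeR adjusted p = 0.0955). Dll4 and Psenen passed when ZT16 replicate 2 was left out and in none of the other 5 cases, with Dll4 at 1.93 and Psenen at −0.33 without ZT16 replicate 1.

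**Figure D4:**
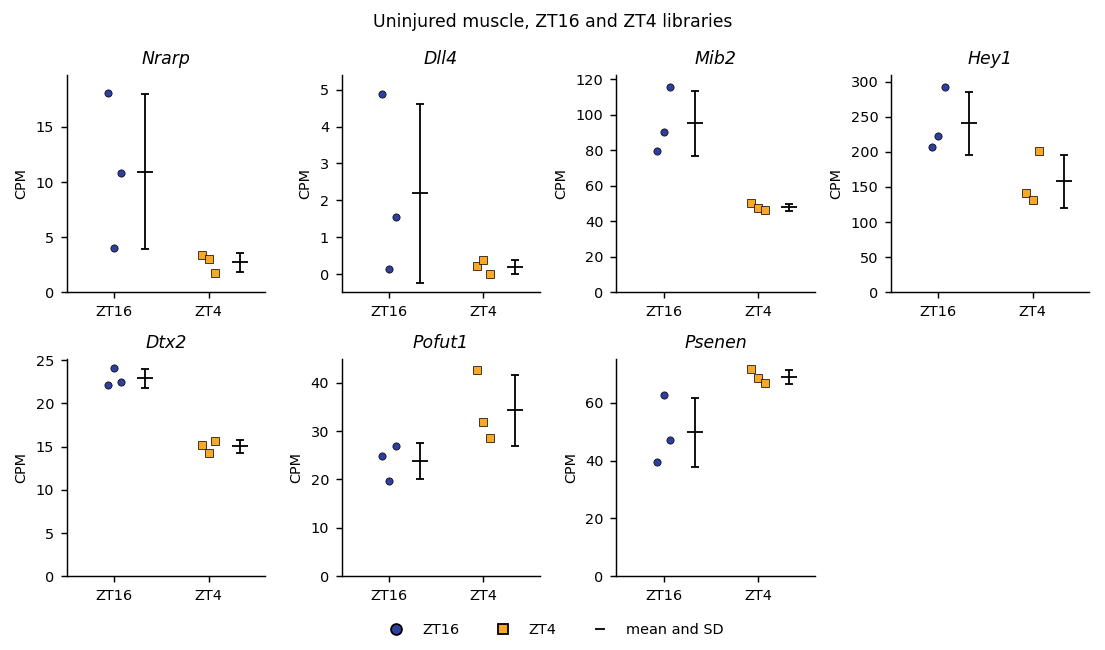
Level in CPM (y axis, linear) of the 7 members called between ZT16 (circles, left) and ZT4 (squares, right) in uninjured muscle, 3 libraries each, with mean and SD. For Nrarp and Dll4, 2 of the 3 ZT16 libraries carry most of the difference. The remaining ZT16 library lies just above the ZT4 libraries for Nrarp and within their range for Dll4. For Mib2, Dtx2, Hey1 and Nrarp all ZT16 libraries are above all ZT4 libraries, and for Pofut1 and Psenen all are below.

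After injury no member differed between ZT16 and ZT4 by edgeR at an adjusted p of 0.05. At day 1, 0.0% of all genes were called, no member had an unadjusted p under 0.05, and DESeq2 and limma called 0 members as well. At day 3, 0.0% of all genes were called, 1 member had an unadjusted p under 0.05, and DESeq2 and limma called 0 members. Mib2 at day 1 had 23.2, 22.8, 23.1 and 14.5 CPM at ZT16, against 17.3, 18.3, 17.6 and 19.4 CPM at ZT4. Dtx2 at day 1 had 24.4, 23.7, 26.0 and 25.1 CPM at ZT16, against 17.5, 22.7, 18.5 and 23.0 CPM at ZT4.

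**Figure D5:**
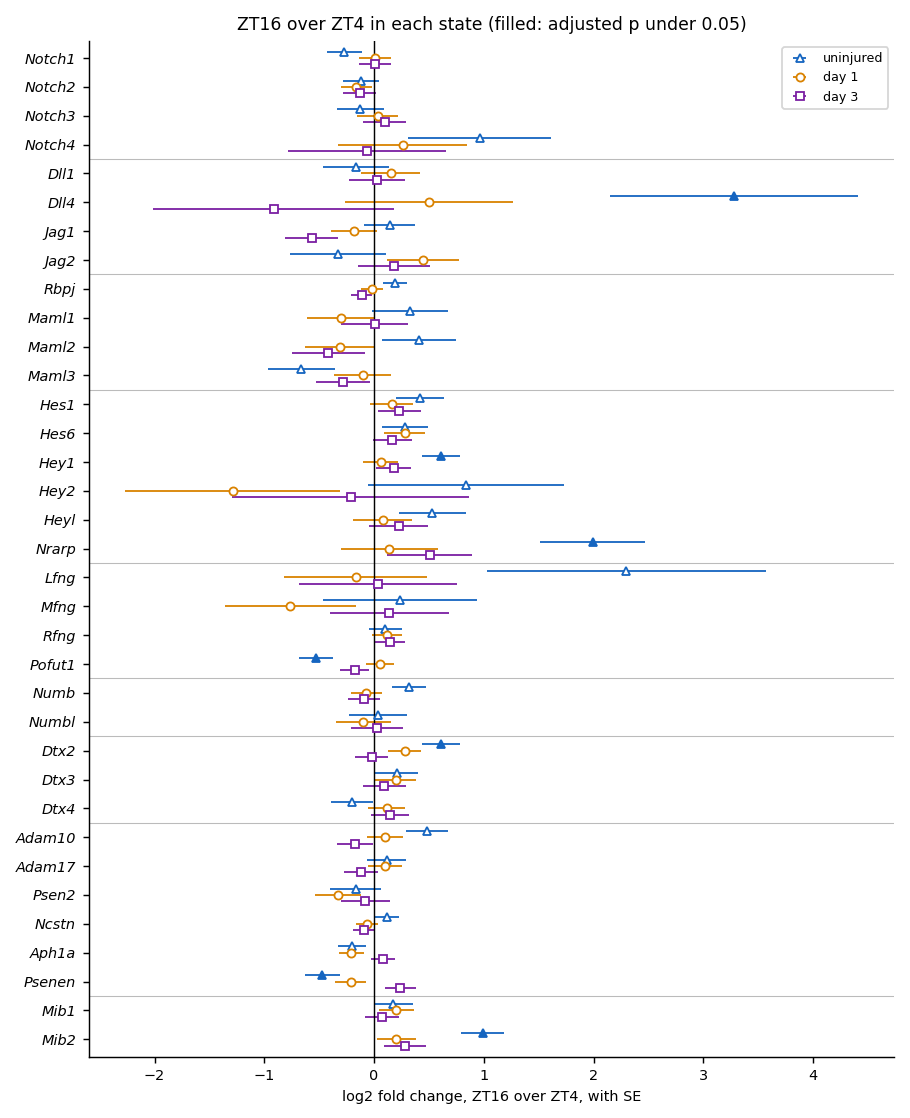
Log2 fold change of ZT16 over ZT4 (x axis) for each of the 35 genes (y axis) in uninjured muscle (triangles), at day 1 (circles) and at day 3 (squares). Bars are SE and filled symbols passed an adjusted p of 0.05, which only uninjured muscle shows, for 7 genes.

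The difference between the ZT16 over ZT4 change (the time effect) after injury and that in uninjured muscle was tested directly. Since the labels tie ZT to the injury, the 2 changes compared may not be alike in kind. At day 1 no member passed (smallest edgeR adjusted p = 0.0749, for Mib2), 4 had an unadjusted p under 0.05, limma called 0 and DESeq2 called 3, where 7.46% of all genes were called by edgeR (3.93% higher and 3.53% lower). At day 3, 1 member passed, where 12.8% of all genes were called (6.8% higher and 5.97% lower). It was Psenen, whose ZT16 over ZT4 change was higher at day 3 than in uninjured muscle by 0.71 ± 0.21 on the log2 scale (edgeR adjusted p = 0.0298). Its day 3 levels were 67.3, 73.8, 64.8 and 53.1 CPM at ZT16, against 49.4, 54.4, 61.9 and 54.2 CPM at ZT4. Without uninjured ZT16 replicates 1 and 3 the difference was 0.39 (edgeR adjusted p = 0.443), and it also missed the threshold without replicate 1 alone (0.57, edgeR adjusted p = 0.103), without replicate 3 alone (0.67, edgeR adjusted p = 0.0687), without day 3 ZT4 replicate 1 (0.67, edgeR adjusted p = 0.0509) and without day 3 ZT16 replicate 2 (0.64, edgeR adjusted p = 0.0669).

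Outside the 35 genes, Furin, whose protease cuts the Notch precursor during its maturation, was the 1 of 38 other pathway genes called between times in uninjured muscle (0.48 ± 0.14, ZT16 over ZT4). Of all genes tested, 17.7% were called there. The time effect of Furin at day 1 was lower than in uninjured muscle by −0.92 ± 0.19. Of the RBPJ-linked genes, Col5a3 (−1.47 ± 0.23) and Col6a2 (−0.61 ± 0.20) were lower at ZT16 than at ZT4 in uninjured muscle. The time effect of Col5a3 differed from that in uninjured muscle at both days (1.17 ± 0.31 at day 1 and 1.16 ± 0.31 at day 3). Fits without uninjured ZT16 replicates 1 and 3 were made for the 35 members and not read for these other genes.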

How the data were processed

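RNA-seq libraries (n = 22) were deposited as 1 transcript table each. Per the file headers, these are RSEM tables with expected counts, effective length, TPM and, as a percentage, each transcript's share of its gene (isoform percent), which the authors deposited without pooling. The submitters' processing notes name Trimmomatic 0.33, STAR 2.5.2, RSEM 1.3.3, DESeq2 and the mm10 build, with no roles given. The annotation release and strand setting are not given in the sources used here, so overlapping and antisense genes may share reads. The deposited expected counts were summed per gene over 103732 transcripts (43430 genes) and rounded. Genes that reached a count of about 10 in too few libraries, or that were under 15 in total, were left out (28346 genes), and all 35 members were kept.

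One edgeR 4.0.16 model (R 4.3.3; quasi-likelihood, robust, TMM factors 0.942 to 1.09) with a mean for each of the 6 groups of state and ZT gave all contrasts, adjusted by Benjamini-Hochberg over 15084 genes with a threshold of 0.05. A state was the mean of its ZT16 and ZT4 groups. SE is the absolute log2 fold change divided by the square root of F. CPM uses TMM-scaled library sizes, and TPM is the deposited value summed per gene. Transcript shares were tested with diffSpliceDGE on rounded expected counts. Alternatives were DESeq2 1.42.0, limma 3.58.1 (voom with quality weights), other scalings, no filter, an effective length offset, a replicate block, the compared groups alone and leaving out each library. Figures used matplotlib 3.10.9 in Python 3.11.15. Simulated counts were used to try edgeR for day 1 over uninjured and for ZT16 over ZT4 in uninjured muscle. They were also used for transcript make-up at day 1, by diffSpliceDGE and with a separate variance for each transcript. Other comparisons and alternatives were not tried on simulated counts.

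The members and lists were chosen with earlier results of these data known. All 35 members could be named, with per-library values for those with the largest changes in each role and those called between times. Of the other pathway genes and the RBPJ-linked genes, up to 4 per comparison with the smallest p were to be named. Some transcripts were named in addition after their values were seen. Gene positions are from GENCODE M21 on GRCm38, and promoter sequences from RefSeq GRCm38.p6.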

Additional observations from a re-analysis of the deposited data

Results flagged for a closer look

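In groups of 4 libraries, 10 of 140 tests found the highest or lowest library far from the other 3, and chance gives about 1 in 20. Day 1 ZT16 replicate 4 was the library in 4 of them. It held 29.6 CPM of Numb, against 43.2 to 44.5 in the other 3, 90.0 CPM of Dtx4, against 174 to 184, and 14.5 CPM of Mib2, against 22.8 to 23.2. Its Notch4 level of 6.37 CPM was the highest, against 1.67 to 1.90. This library also had the lowest sum of the immediate early genes at day 1, 2554 CPM, and the highest sum of endothelial markers, 160 CPM.

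At day 1 ZT4, Dll4 reached 5.18 CPM in replicate 1, against 1.52 to 1.74 in the other 3. At day 3 ZT4, Dtx2 was lowest in replicate 1 at 17.3 CPM, against 23.5 to 24.2, while Adam17 was highest in that library at 107 CPM, against 94.5 to 94.9. Notch3 at day 3 ZT4 was lowest in replicate 3 at 37.6 CPM, against 46.3 to 47.4. At day 3 ZT16, Dll1 was highest in replicate 3 at 119 CPM, against 99.3 to 101, and Heyl was lowest in replicate 2 at 101 CPM, against 154 to 160.

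The ZT16 over ZT4 change of Psenen was higher at day 3 than in uninjured muscle by 0.71 on the log2 scale, the member past the threshold in the test of that difference.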

How the results depend on the processing

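Over all members, comparisons and alternatives, 5523 values kept their direction and side of the threshold, 106 no longer passed, 49 newly passed, and 1 reversed, Dll4 between ZT16 and ZT4 in uninjured muscle (−0.52 without uninjured ZT16 replicates 1 and 3). That alternative and the transcript test with a separate variance were chosen after seeing the data. The 7 members called between times in uninjured muscle became 2 with limma voom, 1 with the compared groups alone and 1 without those 2 libraries. For the time effect at day 1 (0 members), DESeq2 called 3 and no filter 1. For that at day 3 (1 member), DESeq2 called 3, no filter 3, the effective length offset 0, and the fit without those 2 libraries 0. Members with changed transcript make-up numbered 8 (limma) and 6 (separate variance) at day 1 rather than 2, and 9, 9 and, among transcripts of at least 10 percent, 0 at day 3 rather than 3. For day 3 over day 1 they numbered 3 and 1 rather than 0. Over all 7608 genes, limma called 2917 at day 1, 2897 at day 3 and 971 for day 3 over day 1. The separate variance called 2632, 2637 and 416 genes, and the first test 1171, 1198 and 407. The causes were not tested.

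With each library left out, members called ranged from 27 to 31 at day 1 over uninjured, 29 to 32 at day 3 over uninjured, 23 to 26 at day 3 over day 1, 3 to 6 between times in uninjured muscle, 0 to 0 between times at either injured day, 0 to 2 and 0 to 3 for the time effects at day 1 and day 3, and 1 to 3, 2 to 4 and 0 to 1 for transcript make-up. A fit with the replicate number as a block gave 30, 29, 24, 6, 0, 0, 0 and 1 members in the order of comparisons used here, and 2, 3 and 0 for transcripts. With each group's mean taken off, same-numbered libraries of different groups correlated at −0.0957 to 0.149. Libraries with different numbers were not compared in this way, and the labels are silent on pairing, so whether the numbers pair libraries was not settled.

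Over all genes, 2663 were called between times in uninjured muscle, against 577 with the compared groups alone, 1768 without ZT16 replicate 1 and 467 without ZT16 replicates 1 and 3. At day 1, 0 genes were called (920 at an unadjusted p under 0.05), against 27 by DESeq2, 47 by limma, 270 without a filter, 1 with the length offset, 2 with the compared groups alone and 10 without day 1 ZT16 replicate 4. At day 3, 0 were called (1003 unadjusted), against 4 by DESeq2, 127 without a filter and 1 with the compared groups alone. The time effect at day 1 had 1125 genes, against 514 with the compared groups alone, 648 and 728 without ZT16 replicate 1 or 3, and 134 without both. That at day 3 had 1927, and 473 without both. The length offset moved the median of all genes at day 3 to 0.09. At these depths genes under about 5 CPM, such as Dll4, Lfng, Hey2 and Notch4, carry the widest errors.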
